A study of Mus musculus with 6 samples.

Results

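The 7 Hox genes of paralog groups 4 and 5 on the array (Hoxa4, Hoxb4, Hoxc4, Hoxd4, Hoxa5, Hoxb5 and Hoxc5) were examined in mouse spinal cord with and without the label Nkx2.9 knockout. Members were the rows of the deposited table annotated to exactly 1 of these symbols, which gave 1 probe set for each of the 7 genes out of 28815 probe sets in all, and 7 of the 37 measured Hox genes. There were 6 arrays, of which 3 carried the genotype Nkx2.9 knockout and 3 the genotype wild type. Each group had a letter A, B or C for every array, and values of a group are given in that order. All 6 came from cervical cord at embryonic day 11.5, from which the dorsal cord and the floor plate had been removed. The labels named neither a strain nor the deleted part of Nkx2-9, and they did not say whether an array held 1 embryo or a pool, so p-values here cover no more than the spread among these 6 samples, which may be technical.

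Each value was a log2 expression value from which the probe set's own median across the 6 arrays had been subtracted. A value of 0 therefore meant the middle of the 6 arrays. The level of a gene, its signal over background and the identity of the tissue could not be read from such values. Nkx2-9, the targeted gene, stood at -0.071, 0.26 and 0.11 on the knockout-labelled arrays, against -0.21, 0.071 and -0.11 on the wild-type ones. It was thus not lower in the knockout-labelled arrays (difference 0.18, SE 0.11, adjusted p = 0.812 in limma), and every direction below rests on the labels. The position of the probes relative to the deletion was not known. Xist, the RNA of the inactive X chromosome, stood at 0.11, 4.56 and 4.91 on the knockout-labelled arrays, against -0.25, -0.24 and -0.11 on the wild-type ones. The Y-linked gene Eif2s3y stood at -0.035, -3.04 and -3.19, against 0.12, 0.035 and 0.15. High Xist with low Eif2s3y occurred on knockout-labelled B and C only, so sex was not balanced between the groups. The part of sex in the differences below was not tested.

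Hox genes encode homeodomain transcription factors that give cells their position along the head-to-tail axis. They lie in 4 clusters in mammals, and the order of the genes in a cluster mirrors the order of their expression along the body, with low paralog groups further towards the head. In the cord, genes of groups 4 and 5 are expressed from the hindbrain border and cervical levels backwards. Motor neurons of the spinal accessory and phrenic nerves lie at these levels. Hoxa5 and Hoxc5 are known in the mouse for their role in phrenic motor neurons, which drive the diaphragm. Hox proteins bind DNA together with Pbx and Meis proteins, and retinoic acid induces Hox genes at these levels through nuclear receptors.

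Promoters were available for 4 of the 7 genes, with 1 from each cluster, and they are shown because the members were read cluster by cluster and because retinoic acid receptors bind a known half-site. Each run holds 250 bases before and 50 after the start of the gene, from RefSeq on GRCm38.p6, read 5' to 3' in the direction of the gene. Capitals mark matches, on either strand, to AGGTCA (the nuclear receptor half-site, TGACCT on the other strand) or to TTTATG (a Cdx motif).
Hoxb4, chr11:96318017-96318316, plus strand: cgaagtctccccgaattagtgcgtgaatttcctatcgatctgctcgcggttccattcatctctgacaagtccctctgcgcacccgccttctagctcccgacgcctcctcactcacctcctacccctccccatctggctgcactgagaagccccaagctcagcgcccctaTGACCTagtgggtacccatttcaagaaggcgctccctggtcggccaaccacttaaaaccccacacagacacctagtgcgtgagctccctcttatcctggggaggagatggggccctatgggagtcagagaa
Hoxc4, chr15:103034145-103034444, plus strand: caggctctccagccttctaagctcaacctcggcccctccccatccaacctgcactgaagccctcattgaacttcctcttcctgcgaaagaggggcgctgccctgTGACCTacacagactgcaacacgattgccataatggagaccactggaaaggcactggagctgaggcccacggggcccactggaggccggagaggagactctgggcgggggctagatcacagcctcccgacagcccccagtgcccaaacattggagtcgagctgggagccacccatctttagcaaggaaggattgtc
Hoxd4, chr2:74721728-74722027, plus strand: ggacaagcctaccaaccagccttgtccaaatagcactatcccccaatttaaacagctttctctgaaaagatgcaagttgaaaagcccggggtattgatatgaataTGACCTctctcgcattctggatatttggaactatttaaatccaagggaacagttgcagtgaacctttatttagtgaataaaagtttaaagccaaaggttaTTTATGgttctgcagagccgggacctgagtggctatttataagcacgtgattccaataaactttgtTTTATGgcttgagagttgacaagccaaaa
Hoxa5, chr6:52204538-52204837, minus strand: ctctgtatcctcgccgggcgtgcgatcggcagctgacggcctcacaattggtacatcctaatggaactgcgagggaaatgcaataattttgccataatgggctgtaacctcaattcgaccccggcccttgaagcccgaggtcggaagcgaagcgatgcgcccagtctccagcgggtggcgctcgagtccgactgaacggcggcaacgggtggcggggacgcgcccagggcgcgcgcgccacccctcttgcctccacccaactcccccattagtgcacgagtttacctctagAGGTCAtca
The half-site occurred once in each of the 4 promoters, against 16.3% of the 32851 mouse promoters of the same 300 bases. It began 81 bases before the start in Hoxb4, 146 before it in Hoxc4, 145 before it in Hoxd4 and 41 bases after it in Hoxa5. TTTATG occurred 2 times in Hoxd4 and in none of the other 3, against 11.9% of all promoters. The Pbx-Hox composite TGATNNAT (8.85% of all promoters) and the Meis motif TGACAG (19.2%) had no match in the 4 windows, on either strand. These are matches of letters and not sites of binding.

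No member passed the test. The 4 members Hoxa4, Hoxb4, Hoxb5 and Hoxc5 had higher means in the knockout-labelled arrays, by 0.17 to 0.21 on the log2 scale, and Hoxc4, Hoxa5 and Hoxd4 had lower means. Of the 7, 0 passed an adjusted p of 0.05 in limma, against 0% of the whole table. At an unadjusted p under 0.05 there were 0 of 7 as well, against 5.57% of the table. The groups did not overlap in 1 member, Hoxc4, against 10.9% of the complete probe sets. The median difference of the 7 was 0.17, and that of all probe sets was 0.0087. Over the 6 arrays the SD of each member was at or above that of at least 80.2% of the complete probe sets.

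Hoxc4, whose loss in the mouse alters thoracic vertebrae, had the largest difference in size of the 7. It stood at -0.0045, -0.043 and -0.52 on the knockout-labelled arrays, against 0.21, 0.13 and 0.0045 on the wild-type ones. The highest knockout-labelled array and the lowest wild-type array lay next to each other, and the low mean of the first group came mostly from knockout-labelled C. The difference was -0.30 (SE 0.14, interval at 95% from -0.65 to 0.042), with adjusted p = 0.812 in limma. Without knockout-labelled C it was -0.14.

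Hoxa4, which shapes cervical vertebrae, stood at 0.14, 0.28 and -0.12 on the knockout-labelled arrays, against 0.017, -0.19 and -0.017 on the wild-type ones. The knockout-labelled array C lay among the wild-type values. The difference was 0.17 (SE 0.11, interval from -0.10 to 0.43), and it was 0.075 without knockout-labelled B and 0.27 without knockout-labelled C.

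Hoxb4, another gene of cervical vertebral identity, stood at 0.20, 0.064 and -0.064 on the knockout-labelled arrays, against 0.089, -0.34 and -0.15 on the wild-type ones. Wild-type A lay above 2 of the knockout-labelled arrays. The difference was 0.20 (SE 0.12, interval from -0.09 to 0.49), and leaving out wild-type B made it 0.097 and leaving out wild-type A made it 0.31.

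Hoxd4, the only member of the Hoxd cluster, stood at -0.074, -0.23 and 0.14 on the knockout-labelled arrays, against 0.13, -0.15 and 0.074 on the wild-type ones. The groups overlapped over nearly their whole range. The difference was -0.073 (SE 0.11, interval from -0.35 to 0.20; adjusted p = 0.925 in limma). It turned to 0.013 without knockout-labelled B.

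Hoxa5, one of the phrenic genes, stood at -0.32, 0.010 and -0.051 on the knockout-labelled arrays, against 0.081, -0.010 and 0.068 on the wild-type ones. Knockout-labelled A was low and the other 5 arrays lay close together. The difference was -0.17 (SE 0.09, interval from -0.39 to 0.054), and it was -0.066 without knockout-labelled A.

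Hoxc5, the other phrenic gene, stood at 0.45, 0.19 and -0.11 on the knockout-labelled arrays, against 0.022, -0.084 and -0.022 on the wild-type ones. The same array, knockout-labelled A, was high here and low for Hoxa5. The difference of Hoxc5 was 0.21 (SE 0.14, interval from -0.12 to 0.53), and it was 0.070 without knockout-labelled A and 0.35 without knockout-labelled C.

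Hoxb5, which acts in the mouse in the shoulder girdle and in crest cells of the gut, stood at 0.10, 0.17 and -0.23 on the knockout-labelled arrays, against 0.045, -0.48 and -0.045 on the wild-type ones. Each group held 1 low array. The difference was 0.17 (SE 0.16, interval from -0.22 to 0.57; adjusted p = 0.857 in limma), and it was 0.015 without wild-type B. The 95% intervals of the members reached 0.22 (Hoxa5) to 0.40 (Hoxb5) to either side of the estimate, so that smaller differences could not be told from 0 even before adjustment.

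**Figure D1:**
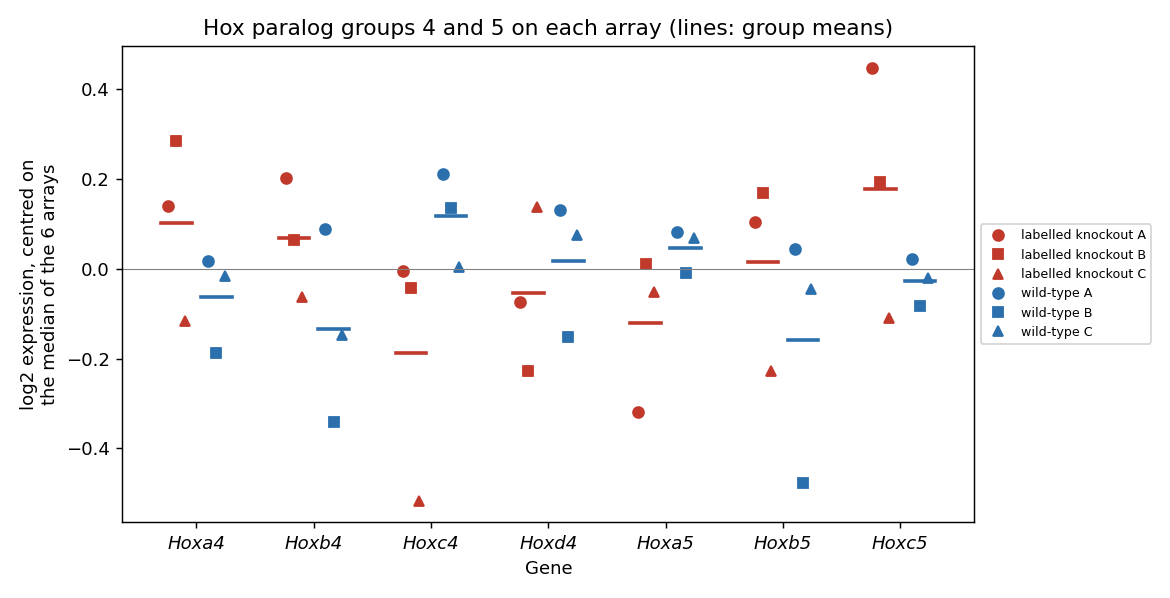
Centred log2 expression of the 7 genes (vertical axis, 0 is the median of the 6 arrays) on each knockout-labelled array (red, left) and wild type (blue, right), with letters as symbols and group means as lines. The groups overlap in every gene but Hoxc4, and knockout-labelled A is highest for Hoxc5 and lowest for Hoxa5.

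Within the 7 genes the arrays were ordered in different ways. Hoxa4, Hoxb4, Hoxb5 and Hoxc5 had Pearson's r from 0.70 to 0.91 among their 6 pairs over the 6 arrays. Without wild-type B these r ran from 0.58 (Hoxa4 with Hoxb4) to 0.92, and without the 2 arrays farthest from the median of the first gene of a pair from 0.61 (Hoxb4 with Hoxc5) to 0.94. After adjustment over the 21 pairs of members no pair passed 0.05. Hoxa4 and Hoxb5 had Pearson's r = 0.911 (exact permutation p = 0.0111, and 0.233 after Benjamini-Hochberg adjustment over 21 pairs of members). Their Spearman's rho was 1 (exact permutation p = 0.00278, and 0.0583 after adjustment). Without the 2 arrays farthest from the median of Hoxa4, r of this pair was 0.942. These 4 genes were singled out after their values were seen. Hoxa5 and Hoxc5, of the same paralog group, had r = -0.756 (exact permutation p = 0.117, adjusted 0.350) and Spearman's rho of -0.029 (exact permutation p = 1, adjusted 1). Their r turned to 0.350 without the 2 arrays farthest from the median of Hoxa5. The relation of these phrenic genes therefore rested on those arrays. All arrays share 1 normalization, and within a genotype there were too few for a correlation.

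Over the 7 genes together the mean was 0.071, 0.064 and -0.14 on the knockout-labelled arrays, against 0.085, -0.16 and -0.012 on the wild-type ones. The lowest means thus belonged to 1 array of each group, knockout-labelled C and wild-type B, where 6 of the 7 genes lay below 0. Those arrays also stood out in lists of other genes, but not in the same way as each other. The median of 14 mesenchyme markers was -0.027, -0.0092 and 0.54 on the knockout-labelled arrays, against -0.084, 0.12 and -0.0043 on the wild-type ones. The median of 8 vessel markers was 0.80 in knockout-labelled C, and between -0.14 and 0.11 on the other 5 arrays. That of 21 cell cycle genes was lowest in wild-type B (-0.56) and highest in knockout-labelled C (0.28), with the rest between -0.10 and 0.18. That of 15 neural cord markers was lowest in knockout-labelled C (-0.090) and stood at 0.014 in wild-type B. The median of 6 erythroid markers was -0.39 in wild-type B and -0.32 in wild-type A, and 0.095 in knockout-labelled C. For 8 floor plate markers the median was 0.066, 0.19 and -0.0043 on the knockout-labelled arrays, against -0.0061, -0.18 and -0.027 on the wild-type ones. Wild-type B was thus lowest there too, but the groups also differed. Of the 8, 7 had a positive difference, with a median of 0.20, and 0 passed over the whole table. An unadjusted p under 0.05 in limma was reached by 4, against 5.57% of all probe sets. In 3 the groups did not overlap, against 10.9% of the complete probe sets. The part of these differences in the values of the Hox genes was not tested, and in tissue of this kind fewer cells of a type and less RNA per cell cannot be told apart.

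The genes whose values followed the mean of the 7 most closely over the 6 arrays were Rela, with Pearson's r = 0.992, Gdf11 (0.988), Casq1 (0.988), Zfp616 (0.976) and Prox1 (0.971). Of these, Gdf11 encodes a growth factor known for its role in the position of Hox expression along the trunk, Rela a subunit of NF-kappaB, and Prox1 a homeodomain factor of neurons leaving the cell cycle. Gdf11 stood at 0.098, 0.043 and -0.19 on the knockout-labelled arrays, against 0.071, -0.19 and -0.043 on the wild-type ones. Its difference was 0.037 (SE 0.10), and its values, like the mean of the 7, were low in knockout-labelled C and in wild-type B. Among 19913 genes, 88 had r over 0.9 with this mean (0.442%). More genes, 154, had a negative r of more than 0.9 in size. The genes named here were picked as the highest of all 19913 over 6 arrays. The size of their r therefore does not set them apart, and a link of Gdf11 or the others to the 7 genes was not tested.

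The 7 genes lie in their clusters between anterior genes and genes of groups 6 to 9, and the median differences of those groups were compared. In groups 1 to 3, 4 of 7 measured genes had a positive difference and the median was 0.042. In group 4, 2 of 4 were higher (median 0.046), and in group 5, 2 of 3 (median 0.17). In groups 6 and 7, 0 of 5 were higher and the median was -0.40, and in groups 8 and 9, 1 of 6 (median -0.67). In groups 10 to 13 the median was -0.020 over 12 genes. Wild-type B decided the small medians: with that array left out they were -0.034 in groups 1 to 3, -0.030 in group 4 and 0.015 in group 5, against -0.40 in groups 6 and 7 and -0.33 in groups 8 and 9. With knockout-labelled A left out, groups 1 to 3 were at -0.0041 and group 5 at 0.070. A positive median in groups 1 to 3 and in group 4 therefore did not hold with single arrays left out. That of group 5 stayed positive but fell to 0.015. All 5 genes of groups 6 and 7 stayed lower in each of these fits. None of the 37 genes passed over the whole table. An unadjusted p under 0.05 in limma was reached by 4 of 5 genes in groups 6 and 7. It was reached by 3 of 6 in groups 8 and 9, against 5.57% of all probe sets in either direction. Each of these Hox genes was lower in the knockout-labelled arrays.

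In the Hoxa cluster the difference was 0.18 for Hoxa2, 0.068 for Hoxa3 and 0.17 for Hoxa4, and then -0.17 for Hoxa5, -0.92 for Hoxa6, -0.40 for Hoxa7 and -0.35 for Hoxa9. The sign turned between Hoxa4 and Hoxa5. In the Hoxb cluster it turned between Hoxb5 (0.17) and Hoxb6 (-0.30), after 0.20 for Hoxb4 and 0.042 for Hoxb3, while Hoxb1 and Hoxb2 stood at -0.21 and -0.13. In the Hoxc cluster the order was broken, with -0.30 for Hoxc4, 0.21 for Hoxc5 and -1.29 for Hoxc6. In the Hoxd cluster the difference was 0.31 for Hoxd3, -0.073 for Hoxd4 and -1.19 for Hoxd8. Because most of these intervals included 0, the gene at which the sign turned was not determined.

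**Figure D2:**
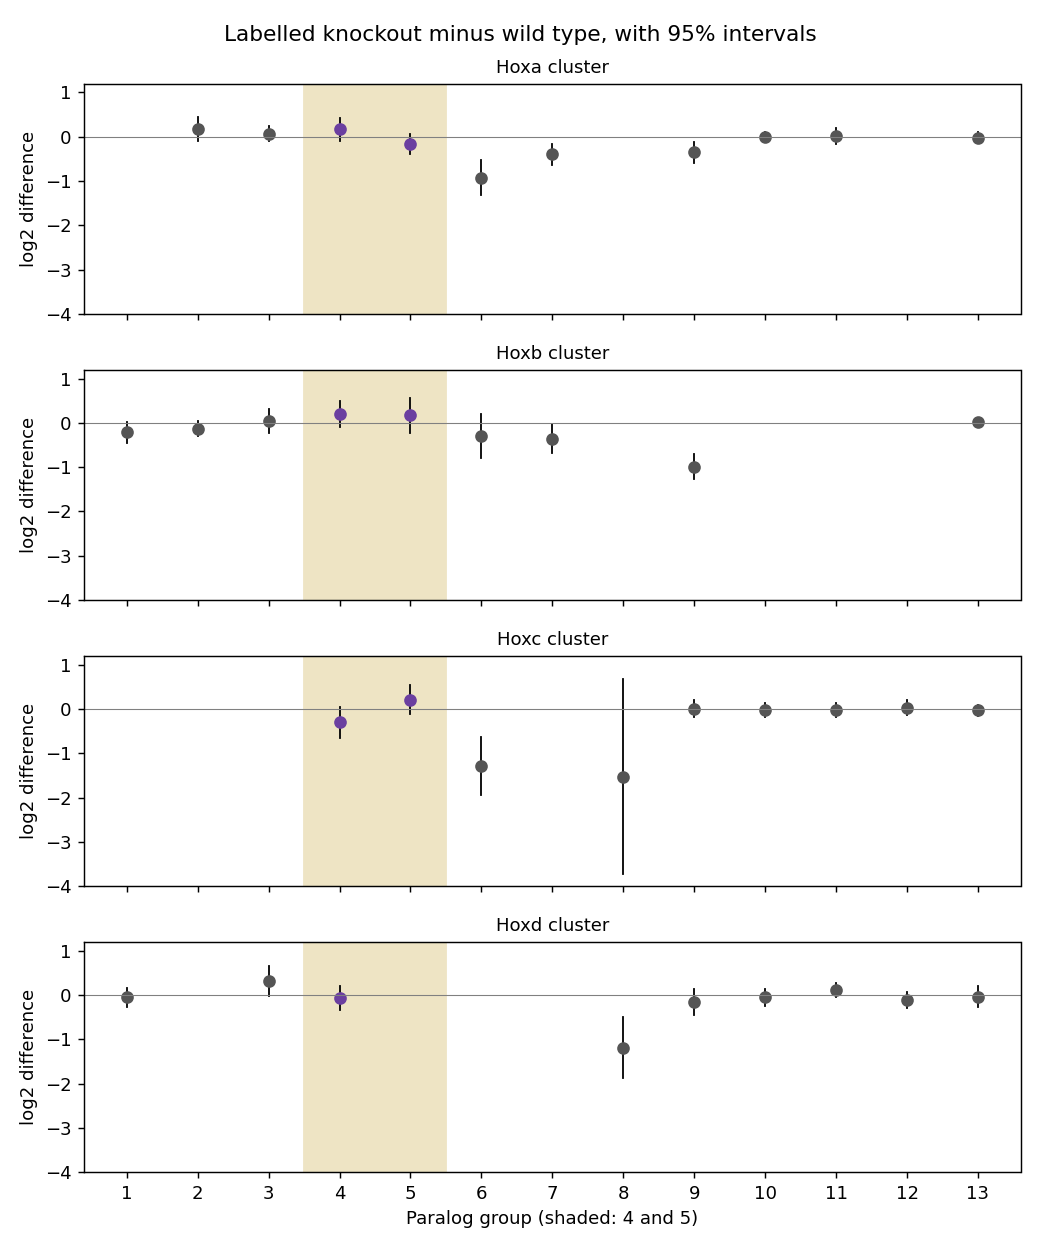
Log2 difference of the knockout-labelled arrays minus wild type (vertical axis) for 37 Hox genes by paralog group (horizontal axis), 1 panel per cluster; points are estimates, bars 95% intervals from limma, purple points the 7 genes. The intervals of the 7 genes include 0, and Hoxa6, Hoxc6, Hoxd8 and Hoxb9 lie lowest apart from Hoxc8, whose bar is widest.

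The step along a cluster could be read on each array as the value of a gene minus that of its neighbour towards the head. Such a difference cancels only what an array adds equally to both genes. The 10 pairs around the members were chosen after the values were seen. In 5 of the 10 pairs the groups did not overlap, and an exact two-sided permutation test gave p = 0.1 for each, the least that 3 arrays against 3 allow, and 0.2 after adjustment over the 10 pairs. No pair could therefore pass. Over 19879 pairs of measured genes next to each other in the RefSeq order, 11.5% did not overlap. The 10 pairs share genes, so their count is a description.

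Hoxc6 minus Hoxc5 was -0.92, -0.86 and -0.26 on the knockout-labelled arrays, against 0.52, 1.53 and 0.39 on the wild-type ones. Every knockout-labelled array lay below 0 and every wild-type array above it. The difference between groups was -1.49, and between -1.70 and -1.14 with single arrays left out. Hoxa6 minus Hoxa5 was -0.46, -0.23 and -0.62 on the knockout-labelled arrays, against 0.25, 0.57 and 0.15 on the wild-type ones, a difference of -0.76. Hoxd8 minus Hoxd4 differed by -1.11. In the Hoxb cluster the step came with an overlap: Hoxb6 minus Hoxb5 was -0.80, -0.11 and 0.17 on the knockout-labelled arrays, against 0.15, 0.33 and 0.19 on the wild-type ones. That difference of -0.47 was -0.19 without knockout-labelled A. The differences of Hoxa6, Hoxc6 and Hoxd8 themselves were -0.92, -1.29 and -1.19, against -0.17, 0.21 and -0.073 for Hoxa5, Hoxc5 and Hoxd4.

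Between the members themselves, Hoxc5 minus Hoxc4 was 0.45, 0.24 and 0.41 on the knockout-labelled arrays, against -0.19, -0.22 and -0.026 on the wild-type ones. The mean was 0.37 ± 0.11 in the knockout-labelled arrays and -0.14 ± 0.10 in wild type (SD, n = 3 each), and the difference of 0.51 stayed between 0.47 and 0.57 with single arrays left out. The knockout-labelled array C was the lowest of the 6 for both genes. Hoxb5 minus Hoxb4 differed by -0.026 (exact permutation p = 0.8), and Hoxa5 minus Hoxa4 by -0.33 with overlapping groups (exact permutation p = 0.2). Hoxd4 minus Hoxd3 was -0.38, -0.24 and 0.12 on the knockout-labelled arrays, against 0.14, 0.33 and 0.18 on the wild-type ones, a difference of -0.38.

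**Figure D3:**
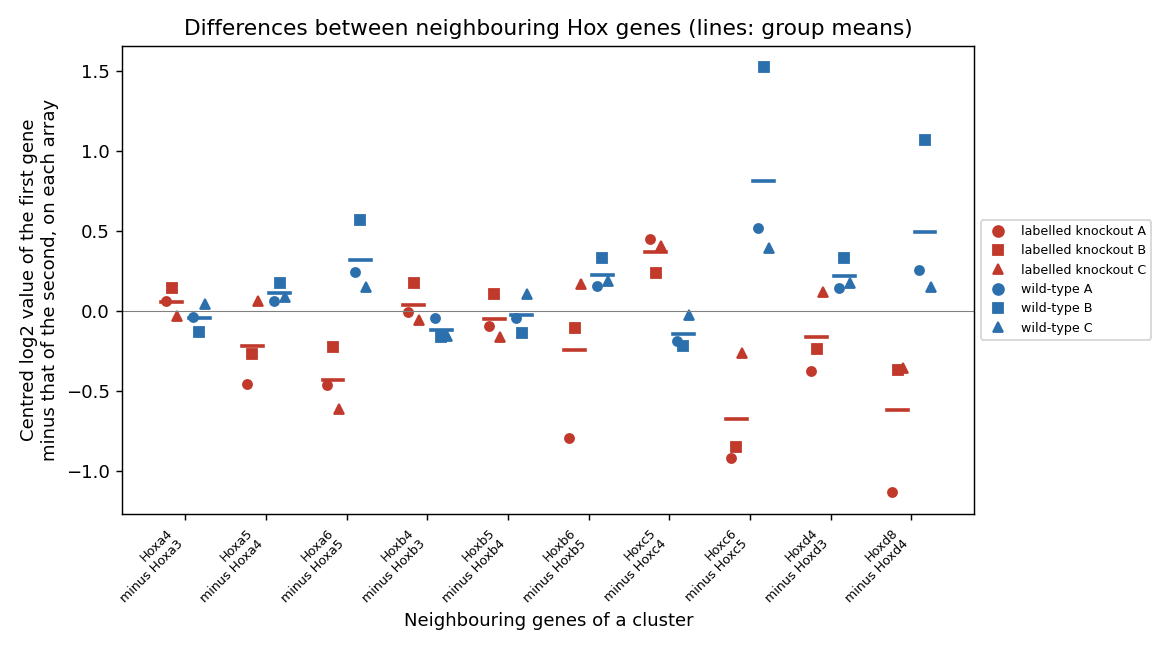
Centred log2 value of a Hox gene minus that of its neighbour towards the head in the same cluster (vertical axis) on each knockout-labelled array (red, left) and wild type (blue, right), with group means as lines. The pairs that lead into groups 6 and 8 in the Hoxa, Hoxc and Hoxd clusters, and Hoxc5 minus Hoxc4 and Hoxd4 minus Hoxd3, show no overlap.

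Several members share their place in the genome with other transcripts, which bears on what a probe set can read. In the RefSeq table Hoxa4 and Hoxa5 overlap Hoxa3, Hoxb4 overlaps Hoxb3 and Hoxd4 overlaps Hoxd3. Hoxa5 overlaps the long noncoding RNA Hoxaas3, and Hoxb5 overlaps Hoxb5os. Long noncoding RNAs also overlap Hoxc4 (Gm30528) and Hoxa4 (LOC115490409). The microRNA genes Mir10b and Mir615 overlap Hoxd4 and Hoxc5, and Mir10a lies beside Hoxb4. Whether longer transcripts of the neighbours reached the probes was not tested. The differences of Hoxa3 and Hoxb3 were 0.068 (SE 0.07) and 0.042 (SE 0.11). That of Hoxd3 was 0.31 (SE 0.14), with groups that did not overlap, while Hoxd4 was at -0.073.

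MicroRNAs of the clusters repress other Hox genes in animals. miR-10a, from beside Hoxb4, and miR-10b, whose gene overlaps Hoxd4, share their seed, while miR-196a, from beside the group 9 genes, has another. The mature sequences are from RefSeq on GRCm38.p6, with the seed (bases 2 to 8) in capitals.
mmu-miR-10a-5p, chr11:96317186-96317208, plus strand: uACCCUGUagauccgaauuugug
mmu-miR-10b-5p, chr2:74726074-74726096, plus strand: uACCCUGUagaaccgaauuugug
mmu-miR-196a-5p, chr11:96265187-96265208, plus strand: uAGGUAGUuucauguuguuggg
The probe sets carry the names of the microRNA genes, and whether they read the mature sequences or longer transcripts was not tested. Mir10a stood at 0.041, -0.19 and 0.018 on the knockout-labelled arrays, against 0.044, -0.018 and -0.21 on the wild-type ones. Mir10b stood at 0.10, -0.15 and 0.43 on the knockout-labelled arrays, against 0.0075, -0.048 and -0.0075 on the wild-type ones. Like the protein-coding genes they lie with, both showed overlapping groups, with differences of 0.016 (SE 0.09) and 0.14 (SE 0.14). Mir196a-1 had a lower mean in the knockout-labelled arrays, with a difference of -0.23 (SE 0.06, unadjusted p = 0.00809, adjusted p = 0.812 in limma). Mir196a-2, on chromosome 15, encodes the same mature sequence, and its difference was -0.015 (SE 0.04). Over the 10 measured noncoding RNAs of the clusters the median difference was 0.028. Hoxaas2, at 0.11 (SE 0.04), had the next lowest p after Mir196a-1.

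The partners and regulators of these Hox genes were compared by lists. Of 10 measured Pbx, Meis, Pknox and Tgif genes, 3 had a positive and 7 a negative difference, with a median of -0.067, and 0 had an unadjusted p under 0.05. Tgif1, a repressor of the same homeodomain class, was at 0.11 (SE 0.09), and Meis3 at -0.11 (SE 0.10). Of 17 measured retinoic acid genes, 11 were higher and 6 lower, with a median of 0.013, and 0 passed over the whole table. Dhrs3, which turns retinaldehyde back to retinol, stood at -0.65, -0.25 and -0.32 on the knockout-labelled arrays, against 0.54, 0.25 and 0.53 on the wild-type ones. It was the exception to small differences in that list, at -0.85 (SE 0.13, unadjusted p = 0.000435, adjusted p = 0.812 in limma). The receptor gene Rxra was at 0.25 (SE 0.08).

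Among 15 measured regulators of axial position were the Cdx genes and the Polycomb and Trithorax genes that hold Hox clusters silent or active. Of the 15, 14 were higher and 1 was lower, with a median of 0.044. Of all probe sets, 55.0% were higher. Other lists were as one-sided, with 21 of 21 cell cycle genes and 14 of 14 mesenchyme markers higher, but 1 of 7 macrophage markers. The count is therefore not particular to regulators of axial position. None of these 15 regulators passed over the whole table, and 2 had an unadjusted p under 0.05, against 5.57% of all probe sets. These were Nr6a1, a nuclear receptor of trunk development, at 0.24 (SE 0.09) and Kmt2a, a Trithorax methyltransferase, at 0.11 (SE 0.05). Wild-type B was the lowest array for the Polycomb genes Eed (-0.22), Suz12 (-0.21) and Ezh2 (-0.13), as it was for the median of the cell cycle genes. It was not the lowest for Bmi1, another Polycomb gene, which was lowest in knockout-labelled C (-0.088). Bmi1 was the 1 regulator with a lower mean in the knockout-labelled arrays, at -0.044 (SE 0.07). The Cdx genes, direct regulators of Hox genes in the mouse embryo, lay between 0.010 and 0.033. Of 19 genes of cervical motor neurons, 8 were higher and 11 lower, with a median of -0.041. The motor neuron factor gene Isl2 was at 0.18 (SE 0.07), Robo2, a guidance receptor gene, was at -0.72 (SE 0.28), and 0 of the 19 passed over the whole table.

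The differences of the 7 genes were recomputed with each array left out. The sign held for Hoxa4, Hoxb4, Hoxb5, Hoxc5, Hoxc4 and Hoxa5 in each of the 6 fits, and it turned for Hoxd4 in 1. The lowest and highest values were 0.075 and 0.27 for Hoxa4, 0.097 and 0.31 for Hoxb4, and 0.015 and 0.30 for Hoxb5. They were 0.070 and 0.35 for Hoxc5, -0.40 and -0.14 for Hoxc4, -0.23 and -0.066 for Hoxa5, and -0.17 and 0.013 for Hoxd4. No adjusted p of a member fell under 0.05 in any of these fits. With the 2 arrays of high Xist both left out, knockout-labelled A alone stood against wild type, and Hoxc5 was at 0.48, Hoxa5 at -0.37, Hoxb4 at 0.34, Hoxb5 at 0.26 and Hoxa4 at 0.20. Hoxc4 was at -0.12 there and Hoxd4 at -0.092, so that Hoxc4 no longer had the largest difference.

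**Figure D4:**
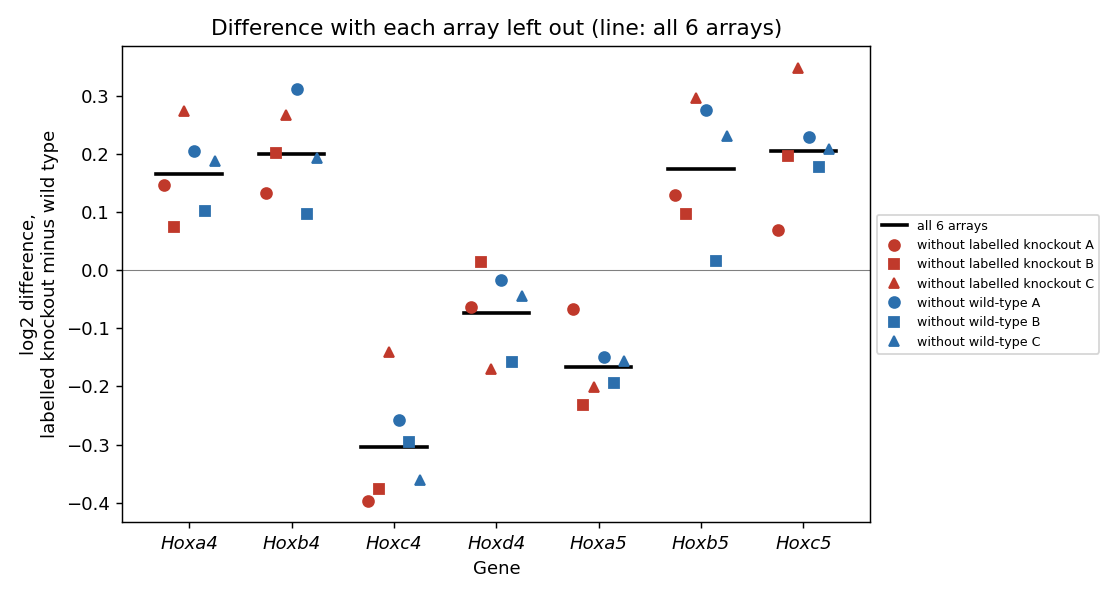
Log2 difference of the knockout-labelled arrays minus wild type (vertical axis) for the 7 genes with all 6 arrays (black line) and with each array left out (symbols, coloured by the group of the array left out). Hoxb5 falls to 0.015 without wild-type B, and Hoxd4 crosses 0 without knockout-labelled B.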

How the data were processed

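RNA of 6 samples was amplified, labelled with biotin and hybridised to whole-transcript expression arrays, per the labels' protocols. The authors obtained the log2 values with RMA, per the submitters' processing notes; the version and settings are not given in the sources used here. Base 2 was assumed, as is usual for RMA. In the deposited table every complete probe set had a median of 0 over the arrays (within 1e-06), so differences between arrays were kept and levels were not. Of the 28815 probe sets, 24 held no number for wild-type C, so their fit used 5 arrays. Symbols came from the platform annotation: 1 symbol was listed for 21780 probe sets, several for 1605 and none for 5430, and the Entrez identifiers of the 7 members were found in a RefSeq table of GRCm38.p6. For genes with several probe sets the one with most accessions was used.

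Knockout was compared with wild type by limma 3.58.1 (lmFit, eBayes) in R 4.3.3 over the whole table, with no covariate beside genotype, Benjamini-Hochberg adjustment and a threshold of 0.05. Intervals are moderated 95% intervals, and the code was tested on simulated data. Precision was limited by the number of arrays. The members and lists were chosen with earlier results of these data known. Named were the members, up to 3 Hox genes per other paralog group and the 5 genes most like the members' mean. The 2 genes of lowest p were named in the lists of cluster noncoding RNAs, Hox partners, retinoic acid genes and axial regulators. The same was done for genes of cervical motor neurons and sex-linked genes. For the lists of cell markers and cell cycle genes, no more than medians and counts were given. Mir10a, Mir10b, Mir196a-2, Haglr, Eed, Suz12, Ezh2, Bmi1, the Cdx genes and further Hox genes were named after their values were seen. Alternatives were a block for the letter, quantile normalization, centring of arrays, array weights, a robust prior, unequal variances, 1 probe set or the mean per gene, a filter on the 30% of probe sets with the lowest SD, and leaving out arrays. Motifs were searched in Python 3.11.15, and figures were drawn with matplotlib 3.10.9.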

Additional observations from a re-analysis of the deposited data

How the results depend on the processing

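The cause was not tested for any change given here. With single arrays left out, Hoxd4 ran from -0.17 to 0.013, turning only without knockout-labelled B, and the median difference of the 7 genes ran from 0.015 (without wild-type B) to 0.27 (without knockout-labelled C). Members at an unadjusted p under 0.05 ran from 0 to 2 and members without overlap from 1 to 4, with both maxima without knockout-labelled C, where Hoxa4 and Hoxc5 passed. With 2 arrays against 3, 17.9% to 27.3% of all complete probe sets did not overlap (18.8% without knockout-labelled C), against 10.9% with all arrays. Over the table, probe sets at an unadjusted p under 0.05 ran from 977 to 2871, against 1605 with all arrays, and at an adjusted p from 0 to 5, with 5 without knockout-labelled A and no member among them. Whether the letters pair the arrays could not be settled with so few arrays. Deviations of same-lettered arrays correlated at 0.16 for A, 0.22 for B and 0.016 for C. Of the 6 arrays, 4 correlated best with their own letter. With the letter as a replicate block, 2552 probe sets and 1 member, Hoxc4, had an unadjusted p under 0.05. Hoxc4 was also the 1 member at that level with quantile normalization and with the filter on low SD. With unequal variances 928 probe sets reached it. Without the 2 arrays of high Xist, an alternative added after the data were seen, 2 members (Hoxa5 and Hoxc5) reached it and the groups did not overlap in 6, against 55.6% of all complete probe sets with 1 array against 3. That fit gave 2254 probe sets at this level, and its lone array was assumed to vary like the others. In 6 alternatives the difference equals the reported one by construction. In the other 10, 69 of 70 member differences kept their sign, and no member passed an adjusted p of 0.05 in any of the 16.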

Other observations

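Hoxc8, which lies further towards the tail end of the Hoxc order than Hoxc4 and Hoxc5, stood at -0.47, -0.30 and 0.0072 on the knockout-labelled arrays, against -0.0072, 3.56 and 0.27 on the wild-type ones. Hoxc6 was highest on the same array, at 1.44 in wild-type B, whereas Hoxc5 stood at -0.084 and Hoxc4 at 0.13 there. On that array Hoxb5, Hoxb4 and Hoxa4 had their lowest values of the 6, at -0.48, -0.34 and -0.19. Haglr, a noncoding RNA of the Hoxd cluster, was also lowest there, at -0.51. In knockout-labelled A, by contrast, Hoxd8 was at -1.21, Hoxb6 at -0.69 and Hoxc5 at 0.45.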
